A study of Bos taurus with 11 samples.

Results

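The glucocorticoid receptor, the enzymes that set how much active glucocorticoid reaches it, and genes that it induces were examined in endometrial biopsies of cows. The set held 9 genes: NR3C1, HSD11B1, HSD11B2, SGK1, FKBP5, TSC22D3, KLF9, DUSP1 and CEBPD. Every non-control probe that the array design names by one of these symbols was taken, which gave 24 of 43653 probes, and each of the 9 is among the 12254 genes with a tested probe. Of these, 23 passed the filter on dim signal, as did 31877 of all probes. The 9 genes were picked with the group differences on these arrays known, so the adjusted p-values below place each probe within the fit over all probes and are no independent support.

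All biopsies were taken on day 7 of the oestrous cycle and each cow gave 1 array of total RNA labelled with the dye Cy3. The 6 fertile cows had conceived by embryo transfer (ET) or artificial insemination (AI) in at most 3 attempts and conceived again at the first transfer that followed the biopsy. The 5 subfertile cows had failed 3 times in a row by ET or AI, although their genital tracts showed no detectable fault and they appeared to cycle normally. Groups were defined by conception history alone, and the labels name no agent or allele. The question is how transcript levels in the endometrium differ with that history at a fixed point of the cycle.

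Glucocorticoids act through the receptor encoded by NR3C1, which waits in the cytoplasm in a complex with heat shock proteins and immunophilins. After binding cortisol it moves to the nucleus, induces one set of genes and represses many inflammatory ones. The enzyme encoded by HSD11B1 regenerates cortisol from cortisone inside cells, and the enzyme encoded by HSD11B2 does the reverse and so protects the mineralocorticoid receptor. In the uterus, glucocorticoids are known for limiting inflammation and for opposing some actions of oestrogen.

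Each probe is a 60-base oligonucleotide and is named here by its gene and by the base of the transcript at which it starts, in the array's annotation. The oligonucleotides below were read from the deposited array files and are shown because the probes of a gene did not all give the same result. They are the 2 probes of the receptor, the dim probe of SGK1, the first probe of TSC22D3, which lay 0.67 from the called TSC22D3 1578 in its difference, the first probe of DUSP1, and the CEBPD probe whose groups did not overlap. Capitals mark runs of at least 6 G or C.
NR3C1 1585: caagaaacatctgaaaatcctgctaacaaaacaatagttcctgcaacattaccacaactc
NR3C1 2308: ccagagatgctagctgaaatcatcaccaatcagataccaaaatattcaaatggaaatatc
SGK1 706: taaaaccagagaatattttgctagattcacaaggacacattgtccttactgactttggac
TSC22D3 538: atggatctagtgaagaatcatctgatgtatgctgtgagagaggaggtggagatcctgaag
DUSP1 951: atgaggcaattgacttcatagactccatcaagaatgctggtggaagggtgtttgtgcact
CEBPD 504: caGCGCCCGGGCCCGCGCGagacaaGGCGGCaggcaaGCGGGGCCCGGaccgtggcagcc
On the Btau_3.1 build, to which the array was annotated, NR3C1 1585 lies at chr7:53979833-53979892 and NR3C1 2308 at chr7:53963699-53963758, both on the minus strand. SGK1 706 lies at chr9:74526678-74526737 on the minus strand and CEBPD 504 at chr14:18786077-18786136 on the plus strand. DUSP1 951 is placed at chr20:4576787-4577274 on the minus strand, a span of 488 bases for 60 bases of probe. The 4 TSC22D3 probes have no position in the files, and exon and UTR annotation was not analysed here. The CEBPD 504 probe is 81.7% G or C, against a median of 45% over all 43653 probes, and 0.0481% of all probes have as much. CEBPD 951 is 41.7% G or C.

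Values are log2 processed signal minus the 75th percentile of the array, so that 0 is that percentile. Differences are subfertile minus fertile with their standard error (SE), from limma fitted on all tested probes with Benjamini-Hochberg adjustment and n = 6 and n = 5 cows throughout. Levels of different probes are not comparable. Of the 23 tested probes, 5 had an adjusted p below 0.05, against 22.2% of all tested probes, and they belonged to SGK1, CEBPD, HSD11B2 and TSC22D3. They were 3 higher probes, against 14.8% of all probes, and 2 lower ones, against 7.38%. The median difference of the 23 probes was 0.09, and that of all probes 0.07. The groups did not overlap for 2 of the 23 probes, against 13.5% of all tested probes.

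The arrays differed in brightness between the groups. The array medians of processed signal lay between 161 and 452 in fertile cows and between 53.8 and 92.7 in subfertile cows. Their log2 means differed by -1.93, with p = 0.00216 in an exact permutation test (two-sided), the lower limit over 462 splits. No known slide or scan day held both groups. All subfertile arrays were scanned on 1 day, from 3 slides, and the fertile arrays of known slide on 3 other days, from 3 slides. Values within a slide or a day therefore cannot be given for a difference between groups. Among fertile cows, the mean of slide 2 (cows 2 and 5) minus that of slide 1 (cows 1 and 3) is given beside several results below. The 2 slides were scanned on different days, so this slide gap cannot be told apart from differences between cows or days. For the called probes it was -0.47 (HSD11B2 1573), -0.15 (SGK1 2051), 0.02 (SGK1 2282), -0.17 (TSC22D3 1578) and 0.22 (CEBPD 504). The part of slide, day and brightness in the results was not tested. In bulk tissue, fewer cells of a type and less RNA per cell cannot be told apart.

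**Figure D1:**
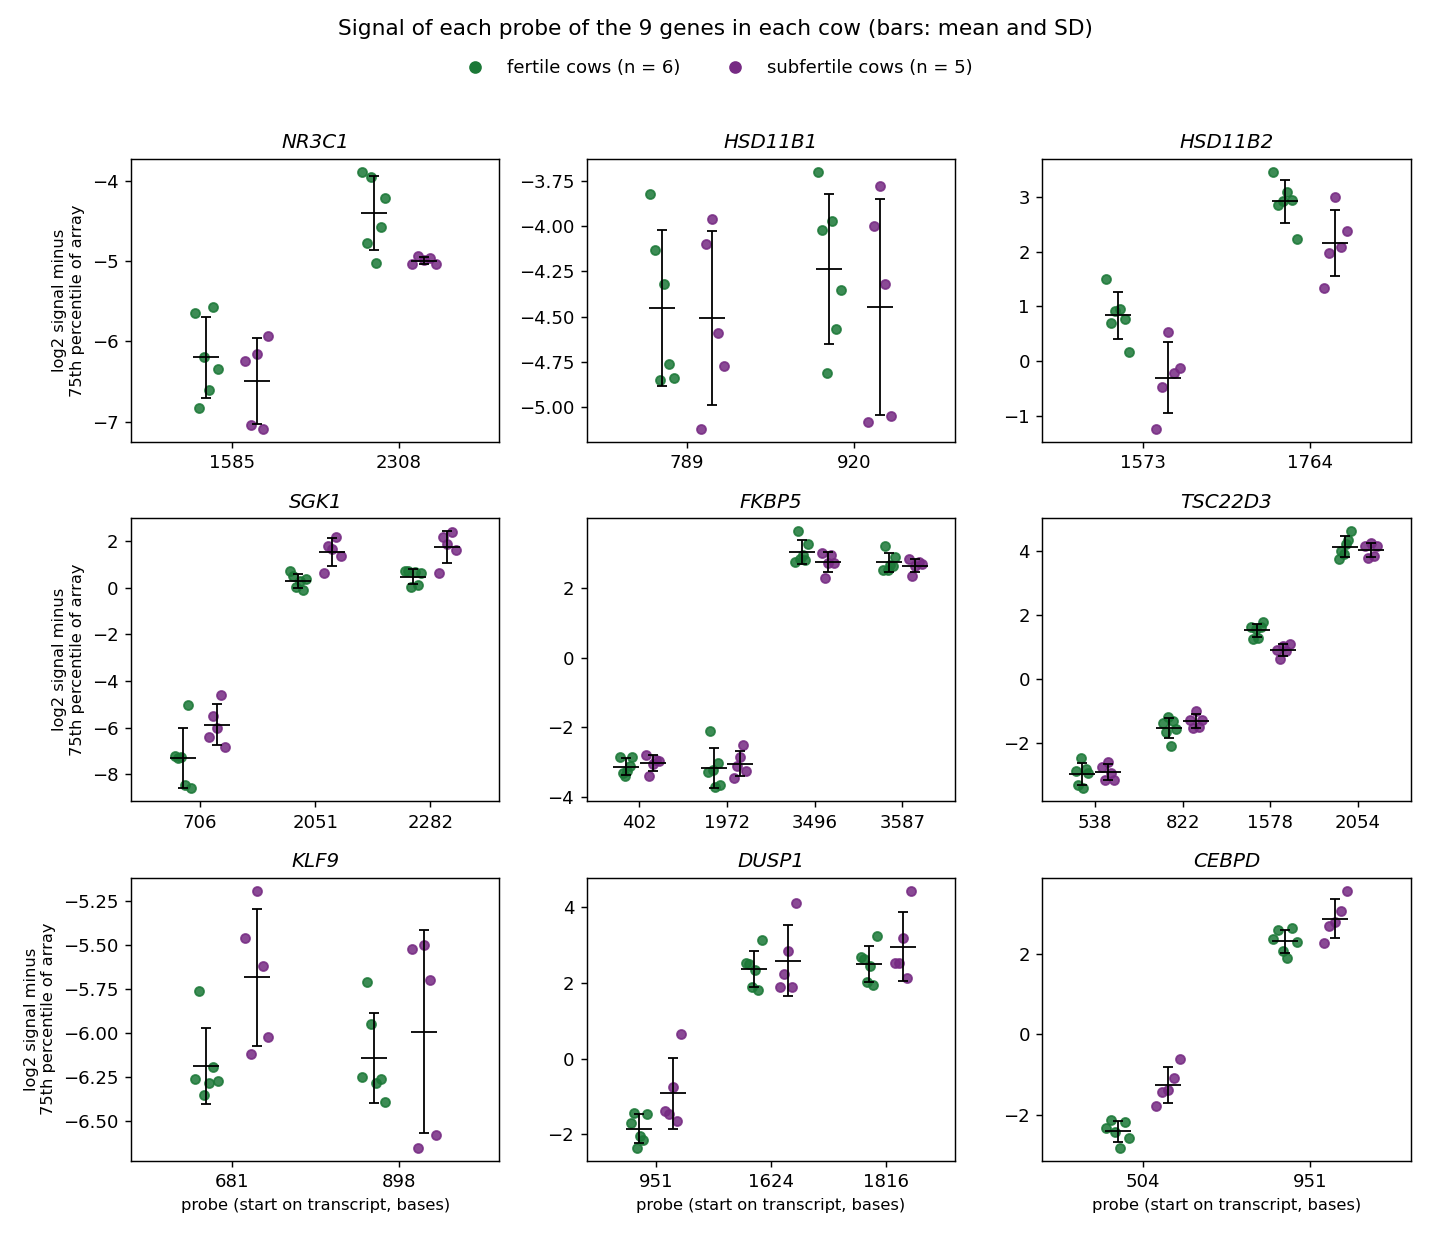
Log2 signal minus the array's 75th percentile of each of the 24 probes in each of 6 fertile and 5 subfertile cows, with mean and SD; the horizontal axis gives the base of the transcript at which each probe starts, and axes differ between panels. The groups stand apart on CEBPD 504 and TSC22D3 1578, and 4 of 5 subfertile cows lie above every fertile cow on the SGK1 probes at 2051 and 2282.

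By the symbol NR3C1, the receptor was read by 2 dim probes. On NR3C1 2308 the fertile cows ran from -5.02 to -3.89 with a median of -4.40, and the subfertile cows stood at -5.04, -4.94, -4.99, -4.96 and -5.04. The subfertile values were nearly identical, with an SD of 0.05 against 0.46 in the fertile cows, and they lay at the bottom of the fertile range. The difference was -0.59 ± 0.20 (SE), with a limma adjusted p of 0.0512. It passed 0.05 under quantile normalization (-0.73, adjusted p = 0.0246), median centring and in the authors' value table, and under normexp background correction it turned to 0.66 with an adjusted p of 0.0112. Among fertile cows, slide 2 stood at -0.76 relative to slide 1, a gap larger than the group difference. On NR3C1 1585 the subfertile cows were at -6.24, -7.04, -6.16, -7.09 and -5.94, none of them well above background, while 5 of 6 fertile cows were. Its difference was -0.30 ± 0.29 (adjusted p = 0.484) and turned to 1.23 under normexp (limma adjusted p = 5.93e-05). No fold is given because the dim group bounds it below 1. The array also holds 2 probes annotated as glucocorticoid receptor but not by the symbol, taken after their values were seen. Both were well above background in all cows, with group means between -0.34 and 0.23. One, starting at base 1468, had a difference of -0.57 ± 0.29 (adjusted p = 0.187, 1 subfertile spot flagged and left out) and a slide gap of -1.29, and the other, at base 1816, had -0.00 ± 0.20 (adjusted p = 0.995) with a slide gap of -0.68. Under normexp the differences of these 2 probes were -0.56 and 0.02. No probe of the receptor passed the threshold in the main fit, and the differences of its probes ran from -0.59 to -0.00.

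HSD11B2, which turns cortisol to cortisone, was lower in subfertile cows. On HSD11B2 1573 the fertile cows ran from 0.17 to 1.50 with a median of 0.84. The subfertile cows stood at -1.24, -0.48, 0.54, -0.22 and -0.12, so that 4 of 5 lay below every fertile cow and subfertile cow 3 lay inside the fertile range. The difference was -1.14 ± 0.29, a 2.20-fold lower signal, with an adjusted p of 0.0189 in limma. With slide as a random block the adjusted p was 0.0456, and with scan day 0.190. The second probe, HSD11B2 1764, gave 1.34, 1.97, 3.00, 2.09 and 2.37 in subfertile cows against 2.23 to 3.46 in fertile ones. Its difference of -0.76 ± 0.28 (adjusted p = 0.0678) missed the threshold. After each probe was centred on its mean, the 2 probes differed by at most 0.33 in any cow.

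HSD11B1, which makes cortisol from cortisone, was dim but well above background in all cows on both of its probes. HSD11B1 789 ran from -4.85 to -3.82 in fertile cows and stood at -5.12, -4.10, -3.96, -4.59 and -4.77 in subfertile cows. The groups overlapped nearly completely, and the difference was -0.06 ± 0.25 (adjusted p = 0.892). HSD11B1 920 differed by -0.21 ± 0.28 (adjusted p = 0.624), from -5.08 to -3.78 in subfertile and from -4.81 to -3.70 in fertile cows. Subfertile cow 1 was the lowest of all cows on both probes, as it was on both probes of HSD11B2. Under normexp, where 53.6% of all probes were called, the differences turned to 0.81 (limma adjusted p = 0.00113) and 0.67 (adjusted p = 0.00426). Levels of the 2 enzymes are not set against each other, since their probes differ.

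SGK1, a glucocorticoid-induced kinase that raises epithelial sodium transport, was higher in subfertile cows on both of its bright probes. On SGK1 2051 the fertile cows ran from -0.09 to 0.71 with a median of 0.31. The subfertile cows stood at 0.64, 1.80, 1.66, 2.19 and 1.34, so that 4 of 5 exceeded every fertile cow and subfertile cow 1 did not. The difference was 1.23 ± 0.25, or 2.35-fold, with an adjusted p of 0.00635. SGK1 2282 gave 1.25 ± 0.28, or 2.38-fold (adjusted p = 0.0102), and tracked SGK1 2051 within 0.20 in every cow after centring. With slide as a block the adjusted p-values were 0.0325 and 0.0471, and with scan day 0.111 and 0.150. SGK1 706 was not tested, since it was well above background in 1 of the 6 fertile and 1 of the 5 subfertile cows. Its values ran from -8.59 to -5.01 in fertile cows and from -6.83 to -4.59 in subfertile cows.

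**Figure D2:**
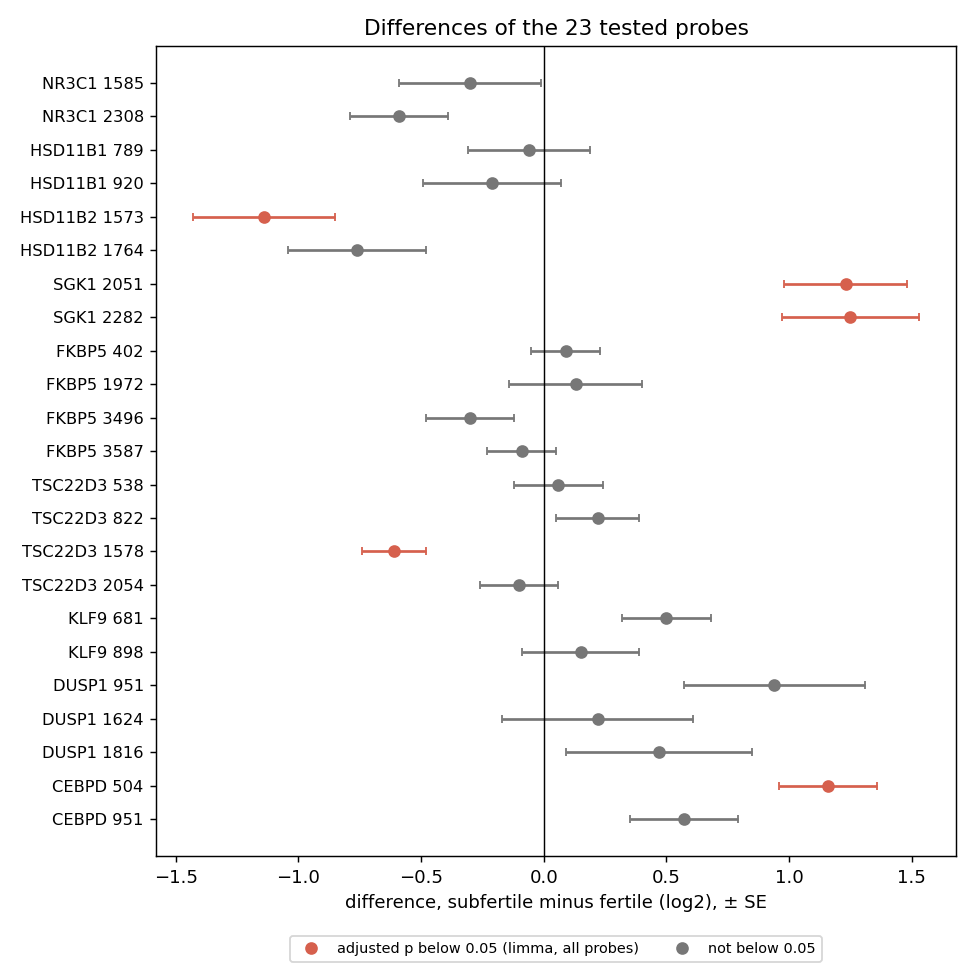
Differences of the 23 tested probes, subfertile minus fertile, in log2 with bars of 1 SE; red marks an adjusted p below 0.05 in limma over all probes. The 3 higher red points are SGK1 2051, SGK1 2282 and CEBPD 504 and the 2 lower ones HSD11B2 1573 and TSC22D3 1578.

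FKBP5 encodes an immunophilin that lowers the receptor's affinity for hormone and is itself induced by it. None of its 4 probes passed the threshold in the main fit, and FKBP5 402 passed under normexp (0.48, limma adjusted p = 0.00401). FKBP5 3496 gave 3.02, 2.30, 2.72, 2.95 and 2.71 in subfertile cows against 2.76 to 3.63 in fertile ones, a difference of -0.30 ± 0.18 (adjusted p = 0.261). The other probes had differences of 0.09 (FKBP5 402), 0.13 (FKBP5 1972) and -0.09 (FKBP5 3587), with adjusted p-values from 0.665 to 0.759. FKBP5 3587, the closest to FKBP5 3496 in position, tracked it within 0.25 in every cow after centring, while FKBP5 1972, with a slide gap of 0.68, departed from FKBP5 402 by 1.21 in fertile cow 2. Fertile cow 2 was the highest cow on 3 of the 4 probes.

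TSC22D3, which encodes the leucine zipper protein GILZ, was read by 4 probes that did not move together. TSC22D3 1578 stood at 1.24 to 1.77 in fertile cows with a median of 1.59, and at 0.92, 0.62, 1.02, 0.86 and 1.09 in subfertile cows. Every subfertile cow lay below every fertile cow, and the difference was -0.61 ± 0.13, or 1.53-fold lower, with an adjusted p of 0.00748. With slide as a block it was 0.0270 and with scan day 0.0974. TSC22D3 822, from the same transcript record, gave 0.22 ± 0.17 (adjusted p = 0.367), so the 2 probes' differences lay 0.83 apart. TSC22D3 538 gave 0.06 ± 0.18 (adjusted p = 0.846), which became -0.04 under median centring and -0.03 under quantile normalization. Under normexp TSC22D3 538 had 0.44 (limma adjusted p = 0.0338). TSC22D3 2054 gave -0.10 ± 0.16 (adjusted p = 0.695). On TSC22D3 2054 the subfertile cows stood at 4.13, 3.78, 4.25, 3.82 and 4.13, all inside the fertile range of 3.73 to 4.60. The lower signal was thus found on 1 of 4 probes.

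KLF9, a zinc finger transcription factor that also modulates progesterone receptor action in the uterus, lay near the limit of detection. On KLF9 681 the fertile cows ran from -6.35 to -5.76, and the subfertile cows stood at -5.46, -6.12, -5.19, -5.62 and -6.02. The probe was well above background in 5 of 6 fertile and in 2 of 5 subfertile cows, and the difference of 0.50 ± 0.18 had an adjusted p of 0.0604. KLF9 898, well above background in 4 of 6 and 2 of 5 cows, stood at -5.52, -6.65, -5.50, -5.70 and -6.58 in subfertile cows against -6.39 to -5.71 in fertile ones. Subfertile cows 2 and 5 lay below every fertile cow and the other 3 above, and the difference was 0.15 ± 0.24 (adjusted p = 0.682). Under normexp, the differences were 1.34 (limma adjusted p = 9.81e-06) and 1.30 (adjusted p = 8.42e-06).

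DUSP1, a phosphatase that switches off stress-activated kinases, had no probe past the threshold in the main fit, and its later 2 probes depended on 1 cow. On DUSP1 951 the subfertile cows stood at -1.38, -1.47, -0.75, -1.64 and 0.66 against -2.35 to -1.43 in fertile cows, a difference of 0.94 ± 0.37 (adjusted p = 0.0931). There all 5 subfertile cows exceeded the fertile median and 3 exceeded every fertile cow. Under normexp DUSP1 951 had 0.91 (limma adjusted p = 0.0266). On DUSP1 1816 they stood at 2.51, 2.52, 3.17, 2.14 and 4.43 against 1.94 to 3.23, a difference of 0.47 ± 0.38 (adjusted p = 0.401). Subfertile cow 5 was the highest cow on all 3 DUSP1 probes, and fertile cow 6 was the highest fertile cow on the later pair. On DUSP1 1624 the subfertile cows stood at 1.88, 2.23, 2.83, 1.89 and 4.10 against 1.81 to 3.12. It had a difference of 0.22 ± 0.39 (adjusted p = 0.712), which became -0.16 without subfertile cow 5. Without that cow the difference of DUSP1 951 was 0.54 and that of DUSP1 1816 was 0.10. The differences of DUSP1 951 and DUSP1 1624 lay 0.71 apart.

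CEBPD, a transcription factor of the acute-phase response, had the smallest adjusted p of the set on its early probe. On CEBPD 504 the fertile cows ran from -2.82 to -2.14 with a median of -2.38, and the subfertile cows stood at -1.79, -1.43, -1.38, -1.09 and -0.60. Every subfertile cow exceeded every fertile cow, and the difference was 1.16 ± 0.20, or 2.23-fold, with an adjusted p of 0.00320. With slide as a block it was 0.0148 and with scan day 0.0590. CEBPD 951 gave 2.29, 2.71, 2.79, 3.07 and 3.58 in subfertile cows against 1.90 to 2.66 in fertile ones, a difference of 0.57 ± 0.22 (adjusted p = 0.0822). The differences of the pair lay 0.59 apart, and CEBPD 504 is the GC-rich probe printed above. The part of base composition in that gap was not tested.

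**Figure D3:**
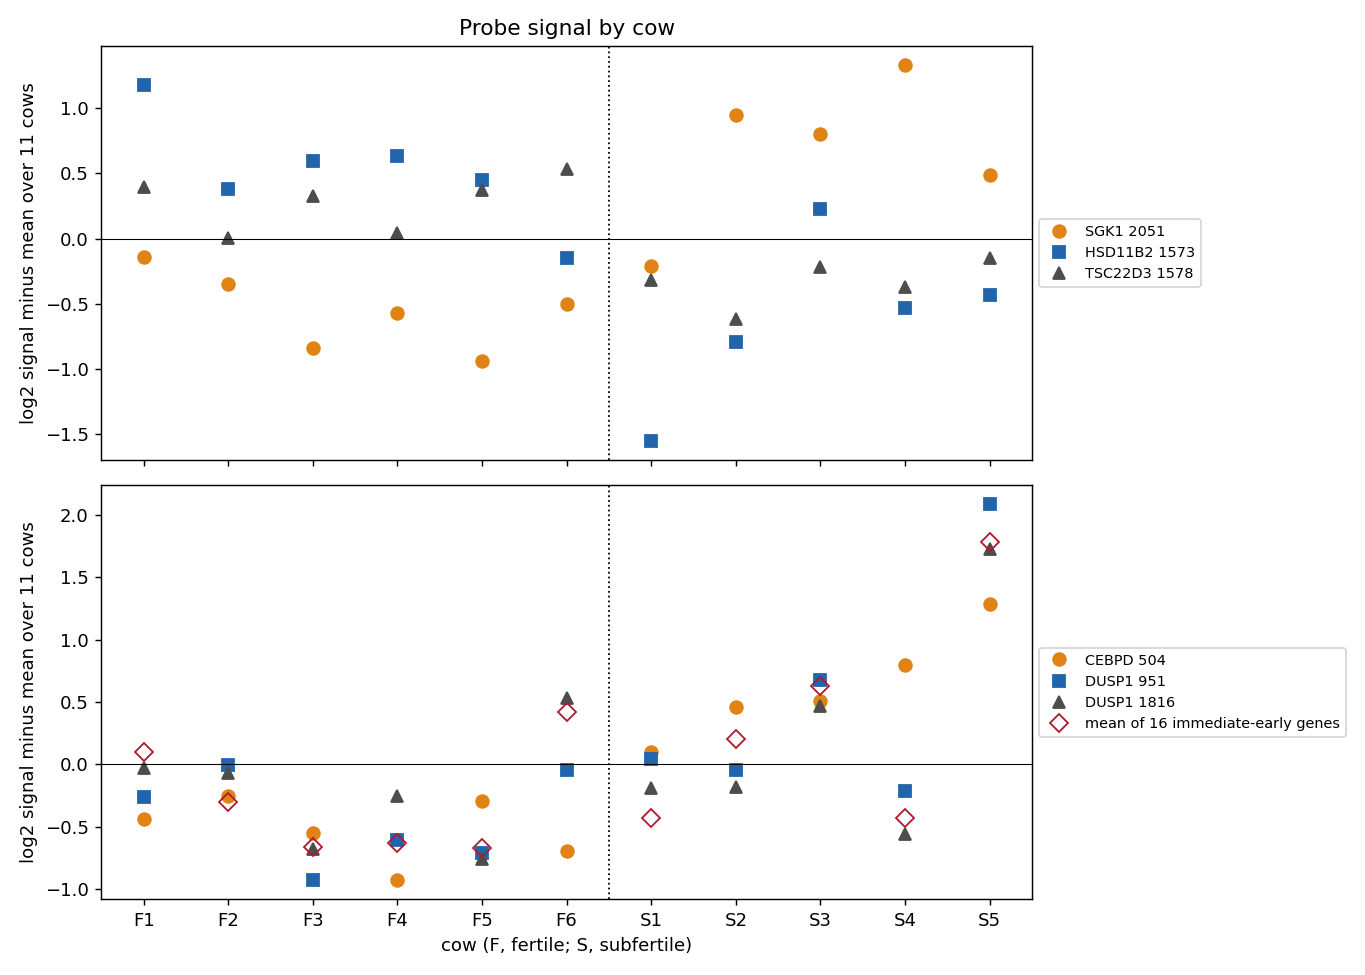
Log2 signal of 6 probes in each cow, centred on the mean over the 11 cows, with the mean of 16 immediate-early genes in the lower panel; the dotted line separates 6 fertile (F) from 5 subfertile (S) cows. Subfertile cow 5 is highest on DUSP1 951, DUSP1 1816 and CEBPD 504 and on the immediate-early mean (1.78), and subfertile cow 1 is lowest on HSD11B2 1573 while its SGK1 2051 lies among the fertile cows.

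The cows that set these values were not the same for each gene. Subfertile cow 4 was the highest cow on both bright SGK1 probes, subfertile cow 1 the lowest on HSD11B2, and subfertile cow 5 the highest on DUSP1 and CEBPD. For immediate-early genes, which respond quickly to many stimuli, the mean of the 16 tested genes, centred over cows, was 1.78 in subfertile cow 5, 0.63 in subfertile cow 3 and 0.42 in fertile cow 6. It ran from -0.67 to 0.42 in fertile and from -0.43 to 1.78 in subfertile cows. These 3 cows were also the 3 highest on DUSP1 1816. The part of the immediate-early response in the DUSP1 and CEBPD values was not tested.

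The other genes of the pathway were then read in 5 lists, with 1 probe (the brightest tested) for each gene. All gene lists were compiled with earlier results of these data known, and their counts stand beside 22.4% of all genes called, 14.6% higher and 7.74% lower. The median difference of all genes was 0.06. In the receptor complex and its coregulators, 5 of 22 genes were higher, none was lower and the median was 0.04. STUB1, a ubiquitin ligase of the chaperone system, was higher by 0.63 ± 0.11 (adjusted p = 0.00331). STIP1, which links the heat shock proteins, was higher by 0.53 ± 0.11 (adjusted p = 0.00842), and 5 of its 6 probes passed. HSP90AA1, an HSP90 chaperone, was higher by 0.51 ± 0.12 (adjusted p = 0.0138), with 2 of its 6 probes passing, and by 0.21 under quantile normalization. HSP90AB1, its constitutive paralog, had a difference of 0.72 ± 0.16 (adjusted p = 0.00926) on 1 of 6 probes, and under quantile normalization it was -0.09. FKBP4, the immunophilin that favours nuclear transport, was higher by 0.65 ± 0.21 (adjusted p = 0.0434), with a slide gap among fertile cows of 0.69. HSP90AA1 (adjusted p = 0.0537) and FKBP4 (0.0745) lost the call with slide as a random block. NR3C2, the mineralocorticoid receptor, had a difference of 0.41 ± 0.18 (adjusted p = 0.127).

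Among enzymes and carriers of corticosteroids, 2 of 11 tested genes were higher and 2 lower, and the median was -0.15. CYP17A1, the 17-alpha-hydroxylase, was higher by 0.77 ± 0.13 (adjusted p = 0.00244), and CYP21A2, the 21-hydroxylase, by 0.98 ± 0.17 (adjusted p = 0.00307) on 1 of 2 probes. Both were dim, with group means between -5.86 and -3.83. AKR1C4, a ketosteroid reductase, was lower by 1.38 on the log2 scale (-1.38 ± 0.41, adjusted p = 0.0338) on 1 of 3 probes. UGT1A1, a glucuronidating enzyme, was lower (-0.82 ± 0.26, adjusted p = 0.0409) on 1 of 2 probes. The adjusted p of AKR1C4 was 0.117 and that of UGT1A1 0.157 with slide as a random block. AKR1C4 and UGT1A1 have close paralogs or share exons with them, so their probes may read more than one gene. H6PD, which supplies the cofactor of HSD11B1, had 2 probes on the array and neither was tested.

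Among other glucocorticoid-induced genes, 5 of 38 were higher and 2 lower, with a median of 0.09. PER1, a clock gene induced by the receptor, ran from 4.09 to 4.58 in fertile and from 4.76 to 5.00 in subfertile cows, with a difference of 0.59 ± 0.11 (adjusted p = 0.00440). All 5 of its probes passed and its groups did not overlap, and under quantile normalization the difference was 0.34. FAM107A was higher by 0.75 ± 0.14 (adjusted p = 0.00488), LCN2, a siderophore-binding protein, by 0.71 ± 0.18 (adjusted p = 0.0156) and CDKN1A, a cell cycle inhibitor, by 1.05 ± 0.27 (adjusted p = 0.0185). SCNN1A, a subunit of the epithelial sodium channel that SGK1 acts on, was lower, with a difference of -1.38 ± 0.36 (adjusted p = 0.0202) on 1 of 2 probes. The remaining called genes, named after their values were seen, were CRISPLD2 (-0.47, adjusted p = 0.0280, on 1 of 4 probes, and -0.73 under quantile normalization) and CEBPB (1.92, adjusted p = 0.0293), whose slide gap among fertile cows was 2.70. SCNN1A (adjusted p = 0.0924), CDKN1A (0.117) and CRISPLD2 (0.0685) lost the call with slide as a random block. ZBTB16, a transcription factor often used as a marker of receptor activity, had a difference of 0.01 ± 0.19 (adjusted p = 0.968). ANXA1, which mediates anti-inflammatory action, had -0.13 ± 0.22 (adjusted p = 0.712). Genes known as induced by the receptor thus lay on both sides of 0.

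**Figure D4:**
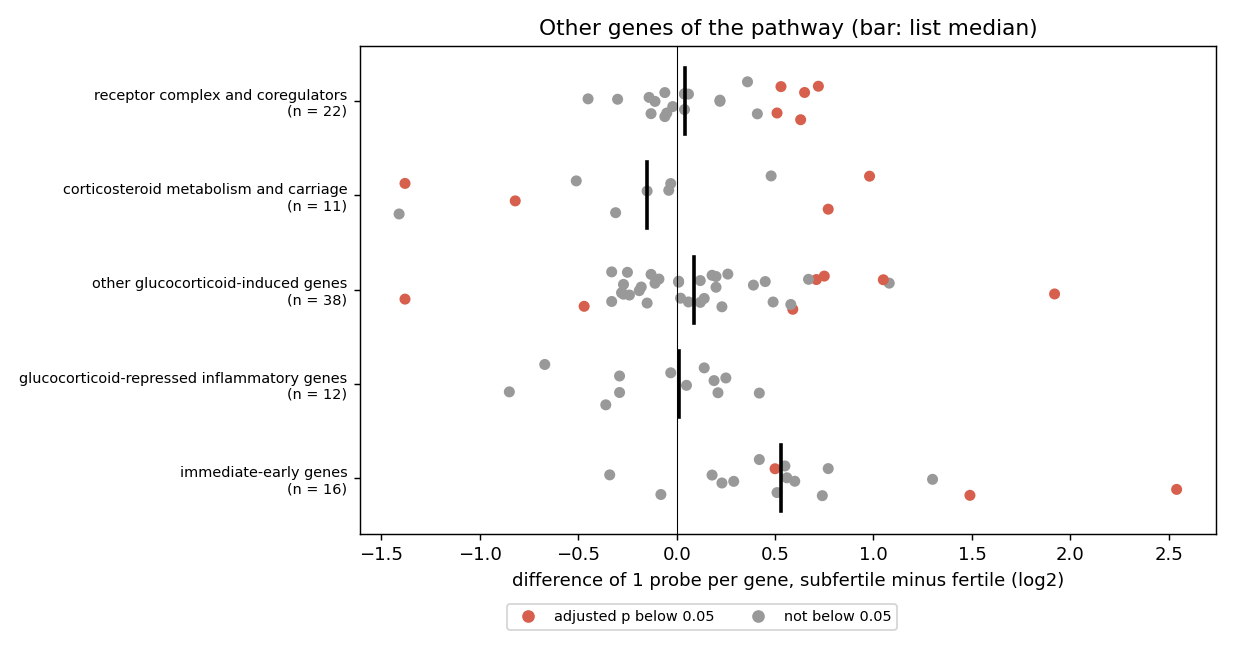
Difference of each gene of 5 pathway lists, subfertile minus fertile in log2, by the brightest probe of the gene, with the list median as a black bar and red for an adjusted p below 0.05. The immediate-early list has the largest median, 0.53, and FOSB the largest difference, 2.54.

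Of 12 tested inflammatory genes that the receptor represses, none passed the threshold in limma and 1 had an unadjusted p below 0.05, and the median was 0.01. That gene, VCAM1, an adhesion molecule, had -0.85 ± 0.37 (adjusted p = 0.117), and 1 of its 2 probes, not the brightest, passed as lower. IL1B, an inflammatory cytokine named after its values were seen, had 0.21 ± 0.15 (adjusted p = 0.346) on its brightest probe, and 2 of its 4 probes passed as higher. CXCL8, a neutrophil chemokine, had 0.42 ± 0.29 (adjusted p = 0.315), and PTGS2, the inducible prostaglandin synthase, -0.67 ± 0.48 (adjusted p = 0.335) with a slide gap of 1.01. Of the 20 genes of the list, 8 were too dim to be tested. Of 16 immediate-early genes, 3 were higher and none lower, with a median of 0.53. JUND was higher by 1.49 ± 0.22 (adjusted p = 0.00145), FOSB by 2.54 ± 0.57 (adjusted p = 0.00995) on 1 of 2 probes and IER3 by 0.50 ± 0.14 (adjusted p = 0.0306) on 1 of 2 probes. FOS had 0.74 ± 1.28 (adjusted p = 0.709) and EGR1 0.60 ± 1.05 (adjusted p = 0.711), with subfertile cow 5 at 5.66 and 4.63, the highest of all cows for both. The slide gap among fertile cows was 1.33 for FOSB, -1.20 for FOS and -1.07 for EGR1, and with slide as a random block the adjusted p of IER3 was 0.104. With scan day as a block, JUND (adjusted p = 0.0444) and CYP17A1 (adjusted p = 0.0451) were the 2 genes of the 5 lists that passed.

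Markers of epithelium differed between the groups in a larger share than all genes, of which 22.4% were called, but shifts were not particular to them. The median difference was 1.03 for ciliated cell and 0.78 for smooth muscle markers, with all 10 tested markers of each above 0. Medians below 0 were those of stromal (-0.15) and macrophage (-0.29) markers. Of 19 tested epithelial markers, 10 were higher in subfertile cows and none lower, with a median difference of 0.52. Among fertile cows the slide gap of these 10 ran from 0.17 to 1.05. The summed linear level of all 19 tested epithelial markers, in units of the 75th percentile of each array, ran from 117 to 205 in fertile and from 193 to 246 in subfertile cows. Of 14 stromal markers 2 were higher and 2 lower, with summed levels of 375 to 494 and 414 to 590. Of 10 smooth muscle markers 2 were higher, and subfertile cow 1, which was lowest on HSD11B2, had the highest mean of that list at 1.96. By the brightest probe of each gene, as for every marker list, 3 of 10 ciliated cell and 2 of 10 endothelial markers were higher. Of 10 macrophage markers 1 was lower, and of 12 T and NK cell markers 2 were higher. None of these lists had a brightest probe called the other way. Among their other probes, CD4 and CD3G each had 1 called lower, and CD14 had 1 called higher. Of 7 B and plasma cell markers 2 were higher, and 1 higher and 1 lower were found among 7 neutrophil and among 5 erythroid markers. The lower erythroid marker, EPB42, was well above background in 6 fertile and 0 subfertile cows, and its -2.18 turned to 0.67 under normexp. The lower neutrophil marker, CATHL2, was well above background in 6 fertile cows and 1 subfertile cow, and its -3.55 became -0.74. Every tested epithelial, ciliated, stromal, endothelial and smooth muscle marker was well above background on all arrays, though tested markers had already passed the filter on dim signal. The part of cell composition in the differences of the 9 genes was not tested.

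For genes whose brightest probe varied more over the cows than the median probe (SD of 0.34), the genes with the most similar profile were sought among 12136, by the root mean square (RMS) difference over the 11 arrays after centring. HSD11B2 was nearest to GPAT3 (0.18) and LY75 (0.18). NR3C1 was nearest to CLYBL (0.17) and MFSD8 (0.17), and HSD11B1 to MAOA (0.31) and FYCO1 (0.32). For SGK1, whose SD of 0.82 was the largest of these members, the nearest were ZMAT3 (0.42) and GATA3 (0.44). The RMS was not scaled by the spread of a gene, so its size is not comparable between members. FKBP5 was nearest to WDR33 (0.19) and RECQL (0.20), and KLF9 to LOC523702 (0.17) and CCDC60 (0.17). DUSP1 was nearest to ZFP36 (0.28) and PPP1R15A (0.29), and CEBPD to CCL3 (0.20) and CD37 (0.22). These are descriptions over arrays that share a design and, in part, slides.

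**Figure D5:**
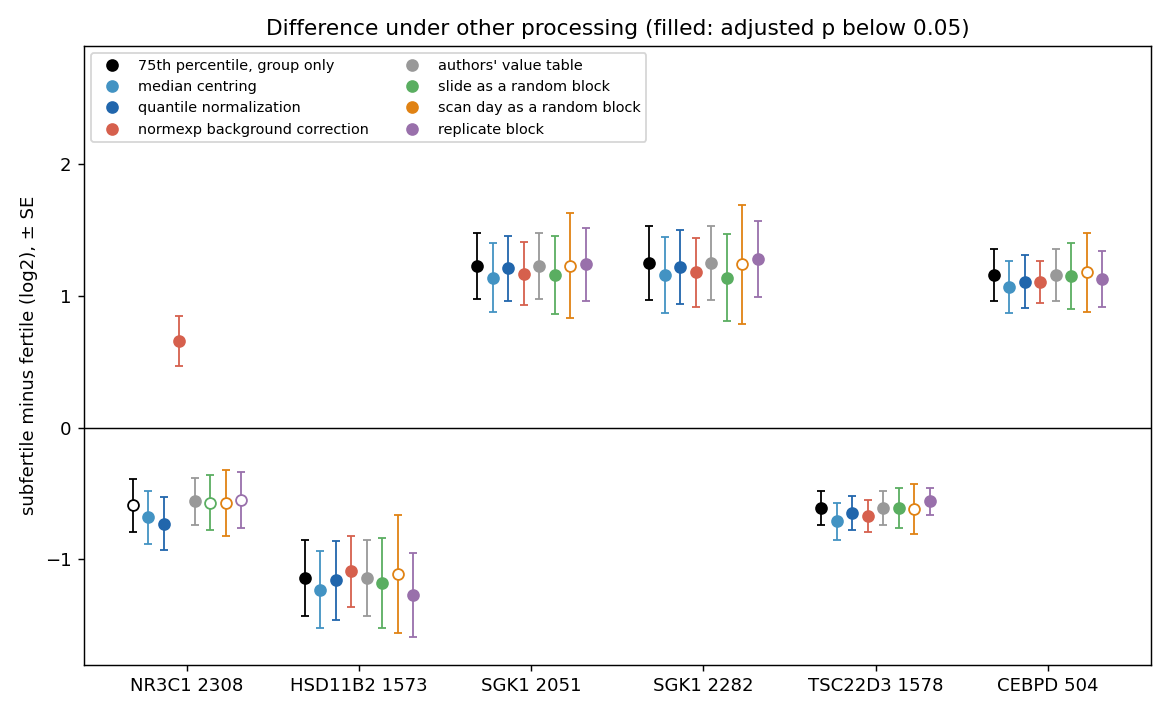
Difference of the 5 called probes and of NR3C1 2308 under 8 ways of processing, subfertile minus fertile in log2 with bars of 1 SE; filled points have an adjusted p below 0.05. The called probes keep their direction in all of them and lose the call with scan day as a random block, and NR3C1 2308 changes sign under normexp.

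Across these settings the called probes kept their direction. With scan day as a random block none of the 23 probes passed in limma: the adjusted p-values of the 5 ran from 0.0590 to 0.190, and 6 probes had an unadjusted p below 0.05. With slide as a random block the same 5 passed, with adjusted p-values from 0.0148 to 0.0471. The share of all probes called fell to 11.5% with slide and to 3.06% with scan day.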

How the data were processed

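Endometrial RNA of 11 cows was hybridised to Agilent 1-colour arrays and read with Agilent Feature Extraction (10.5.1.1 in the submitters' processing notes). The deposited scanner files hold, per the file headers, linear intensity for 45220 spots, as processed and mean signal beside the local background, with flags for detection. A deposited table by the authors holds log2 values, scaled by array and centred on each probe's median, and served as an alternative. For fertile cow 6 the header is missing and the gene names are out of register, so names were joined by probe. Its slide and scan day are therefore unknown, and the fits with slide or scan day as a block gave it a block of its own. Other genes were named through RefSeq accessions with a gene table (ARS-UCD2.0), which gave names and no positions.

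Control spots and spots flagged as outliers (1 to 156 an array) were left out, and no non-control spot was saturated. Log2 processed signal was lowered by each array's 75th percentile, and replicate spots were averaged per probe. The fit used limma 3.58.1 (R 4.3.3; lmFit, then eBayes, with group as the only term) on the 31877 probes that were well above background on at least 5 of 11 arrays, with Benjamini-Hochberg adjustment over them and a threshold of 0.05. In data simulated from these probes, limma called 63% of the 100 given a 2-fold change and 93% of the 100 given a 4-fold change, and 11 of its 167 calls were false. The simulated noise was independent between arrays, without slide or scan day, and few probes were changed. These rates therefore do not carry over to the real arrays, where the groups shared no known slide or day. The number of arrays limits the precision.

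The members and gene lists were chosen with earlier results of these data known. Named genes are all probes of the 9 members; in each pathway list up to 5 genes past the threshold with the smallest p, filled up to 3 where fewer pass; 9 genes of known role (NR3C2, FKBP4, PER1, ZBTB16, H6PD, PTGS2, FOS, EGR1, ANXA1); and the 2 nearest profiles. Alternatives were normexp (offset 50), median centring, quantile normalization, the authors' table, other filters, blocks of slide, of scan day and of replicate number, a trended robust variance, a threshold of 0.01, another probe for each gene, and leaving out each cow. Replicate numbers did not pair the cows: deviations of same-numbered cows correlated from -0.21 to 0.22.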

Additional observations from a re-analysis of the deposited data

Results flagged for a closer look

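In 1 of 48 combinations of probe and group, 1 cow stood far from the rest of its group, where chance gives about 1 in 20. On KLF9 681, fertile cow 2 was at -5.76 while the other 5 fertile cows lay between -6.35 and -6.19, so that the gap was 0.732 of the range of the group. Without that cow the difference of this probe was 0.59 with a limma adjusted p of 0.0343, against 0.50 and 0.0604 with it.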

How the results depend on the processing

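Against 7067 probes, 5 member probes and 19 list genes called, normexp gave 17082, 15 and 40, a threshold of 0.01 gave 2626, 3 and 9, and scan day as a random block 977, 0 and 2. Slide as a random block gave 3672 probes and 11 list genes, testing every probe without a filter 12179 probes, and the probe with the smallest difference of each gene 10 list genes. Leaving out each cow gave 4527 (without subfertile cow 2) to 7298 probes, 5 to 7 member probes and 13 to 19 list genes. The replicate block gave 4762 probes and 5 member probes, but the numbers do not pair the cows. Calls were 66.7% higher, against 48.5% under median centring, 50.8% under quantile normalization and 87.3% under normexp; the median difference over all probes was 0.07, against -0.02, -0.01 and 0.33. For member probes, 503 values under alternatives were read at the threshold of 0.05. Of these, 463 kept direction and side of the threshold and 5 lost the call (all with scan day). Another 20 gained it in the same direction and 15 changed sign. Sign changes under normexp, each with a limma adjusted p below 0.05, were NR3C1 1585 (1.23), NR3C1 2308 (0.66), HSD11B1 789 (0.81) and HSD11B1 920 (0.67). TSC22D3 538 changed to -0.04 under median centring and -0.03 under quantile normalization. Leaving out a cow moved HSD11B1 789 from -0.20 to 0.10, FKBP5 3587 from -0.14 to 0.00, TSC22D3 538 from -0.03 to 0.15 and DUSP1 1624 from -0.16 to 0.40; without subfertile cow 5, DUSP1 951 was 0.54 and DUSP1 1816 0.10. Taking the percentile over flagged spots too, an alternative chosen after seeing the data, moved NR3C1 2308 to an adjusted p of 0.0499. The causes were not tested. Dim probes, those named NR3C1, HSD11B1 and KLF9 among them, limit what signal over background can show.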
